A study of Mus musculus with 117 samples.

Results

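Astrocytes reach the blood vessels and the surface of the spinal cord with flattened processes called endfeet, and 8 genes of the endfoot's handling of water, potassium and pH were followed here. They were Aqp4, Kcnj10, Kcnj16, Atp1b2, Slc4a4, Mlc1, Hepacam and Dag1, taken by name, with mouse symbols matched to Entrez identifiers. All 8 were among the 27179 genes counted and passed the low-count filter in every comparison, so each one is described in each comparison.

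Aqp4 (Entrez 11829) encodes aquaporin-4, the water channel that is packed into endfoot membranes. Kcnj10 (16513) and Kcnj16 (16517) encode the inward rectifier potassium channel subunits Kir4.1 and Kir5.1, which form channels together and take up the potassium that active neurons release. Atp1b2 (11932) encodes the glial beta subunit of the sodium pump, and Slc4a4 (54403) encodes the electrogenic sodium bicarbonate cotransporter NBCe1. Mlc1 (170790) and Hepacam (72927) encode MLC1 and its partner GlialCAM, a membrane pair needed for glial volume control, and mutations in either gene cause a childhood leukodystrophy. Dag1 (13138) encodes dystroglycan, the receptor that ties the endfoot's dystrophin complex, and with it aquaporin-4, to laminin and agrin in the basement membrane. Loss of this polarised arrangement is a known feature of reactive astrocytes, and the channels and pumps are known to appear as astrocytes mature after birth.

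The RNA-seq libraries came from the spinal cord of C57BL/6 mice, all of them with the RiboTag allele, in which Cre puts an HA tag on ribosomes. The 70 astrocyte libraries held RNA pulled down with those ribosomes, and the 47 flow-through libraries held RNA left in the solution, which includes RNA of all other cells and any astrocyte RNA that was not pulled down. In Aldh1l1-CreERT2 -RiboTag females, both fractions were sequenced for 4 uninjured mice, for 5 mice at day 2 after a complete crush spinal cord injury (SCI), and for groups of 4 on days 5, 14, 28, 42 and 70. Groups of 4 males were added at 5 d and 14 d. In 73.12 GFAP Cre -RiboTag mice, named mGfap here, both fractions were sequenced for 5 injured mice (14 d) and 5 uninjured ones (P63), and astrocyte libraries alone for uninjured mice at P0 (4), P3 (3), P7 (3), P14 (5), P21 (4) and P35 (4). The injured mice were young adults, the tissue was a short block around the lesion centre, and uninjured samples were the matching stretch of cord. The Aldh1l1 line acts after tamoxifen in adult astrocytes, whereas the mGfap line acts from development on, so its tag marks every cell that descends from a cell in which the Gfap promoter was active. The P0 mice were all males, the P63 mice were 3 males and 2 females, and the injured mGfap mice were females. One flow-through library at 5 d (replicate 4) was labelled male although its title and its astrocyte library were not, and it was kept with the females.

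Astrocyte libraries held between 67253656 and 128400518 counts (median 93933978), and flow-through libraries between 40710428 and 136008399. The astrocyte label was checked against 12 markers, none of them among the 8 genes: their summed level was 57420 to 66118 CPM (counts scaled to library size) in uninjured Aldh1l1 astrocyte libraries, against 3960 to 4406 CPM in flow-through libraries. Myeloid markers (8 genes) summed to 23.3 to 37.1 CPM in the uninjured astrocyte libraries and to 2882 to 3678 CPM at 5 d after SCI, and the astrocyte markers fell from the sums above to 25713 to 38180 CPM at 5 d. Oligodendrocyte markers summed to 3628 to 8318 CPM in the uninjured Aldh1l1 astrocyte libraries and to 1236 to 2970 CPM at 2 d. The part of these cells in the time course was not tested. In the mGfap line, replicate 3 of P0 and replicate 1 of P35 stood apart, with astrocyte marker sums of 6143 CPM (13880 to 16441 CPM in the other P0 libraries) and 38744 CPM (52128 to 64350 CPM in the other P35 libraries). In bulk libraries such as these, fewer astrocytes and less RNA per astrocyte cannot be told apart.

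On the GRCm38 assembly, Kcnj10 spans chr1:172341210-172374085, Kcnj16 chr11:110968033-111027968, Atp1b2 chr11:69599728-69605978, Slc4a4 chr5:88793858-89239656, Mlc1 chr15:88955884-88982693, Hepacam chr9:37367356-37386572 and Dag1 chr9:108204861-108263977. Among the 8, exons of Aqp4 alone overlapped another gene, a long noncoding RNA on the opposite strand, over 153 of 6007 bp (2.5%), and that RNA was not among the counted genes. Promoter windows from RefSeq (GRCm38.p6, 250 bases before to 50 after a transcript start) matched 6 members with 11 windows, and none was used here for Aqp4 or Atp1b2. One window is shown for each of 5 members that took different courses after SCI, so that their starts can be read side by side. Capitals mark matches, on either strand, to a STAT motif (TTCNNNGAA), an AP-1 motif (TGANTCA), the short NFI motif (TTGGC), a SOX motif (ACAAAG) and a TATA box (TATAAA). The windows are chr1:172340960-172341259 (+) for Kcnj10, chr11:110967783-110968082 (+) for the first of 4 Kcnj16 starts, chr15:88978504-88978803 (-) for Mlc1, chr9:37367356-37367655 (+) for Hepacam and chr9:108263766-108264065 (-) for Dag1.
Kcnj10: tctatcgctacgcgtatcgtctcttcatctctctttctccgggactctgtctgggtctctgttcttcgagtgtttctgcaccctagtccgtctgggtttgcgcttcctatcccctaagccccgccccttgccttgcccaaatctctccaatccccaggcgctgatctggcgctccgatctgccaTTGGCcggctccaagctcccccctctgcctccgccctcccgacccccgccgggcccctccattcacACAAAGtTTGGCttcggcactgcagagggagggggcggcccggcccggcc
Kcnj16: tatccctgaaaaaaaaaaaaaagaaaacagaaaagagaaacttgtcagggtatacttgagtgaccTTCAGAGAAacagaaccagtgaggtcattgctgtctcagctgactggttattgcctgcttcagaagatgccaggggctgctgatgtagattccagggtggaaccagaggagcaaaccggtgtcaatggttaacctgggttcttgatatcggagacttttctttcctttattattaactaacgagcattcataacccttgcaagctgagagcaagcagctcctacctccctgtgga
Mlc1: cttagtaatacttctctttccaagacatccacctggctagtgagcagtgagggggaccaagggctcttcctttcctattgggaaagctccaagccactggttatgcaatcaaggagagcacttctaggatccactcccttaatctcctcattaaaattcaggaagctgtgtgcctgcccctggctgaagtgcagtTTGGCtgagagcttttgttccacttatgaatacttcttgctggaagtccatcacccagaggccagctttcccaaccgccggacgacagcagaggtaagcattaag
Hepacam: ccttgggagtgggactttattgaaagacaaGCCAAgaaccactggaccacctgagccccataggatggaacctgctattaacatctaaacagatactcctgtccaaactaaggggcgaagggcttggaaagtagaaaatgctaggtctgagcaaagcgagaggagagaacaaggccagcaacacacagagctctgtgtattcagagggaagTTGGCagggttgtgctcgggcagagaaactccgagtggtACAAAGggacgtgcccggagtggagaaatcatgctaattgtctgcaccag
Dag1: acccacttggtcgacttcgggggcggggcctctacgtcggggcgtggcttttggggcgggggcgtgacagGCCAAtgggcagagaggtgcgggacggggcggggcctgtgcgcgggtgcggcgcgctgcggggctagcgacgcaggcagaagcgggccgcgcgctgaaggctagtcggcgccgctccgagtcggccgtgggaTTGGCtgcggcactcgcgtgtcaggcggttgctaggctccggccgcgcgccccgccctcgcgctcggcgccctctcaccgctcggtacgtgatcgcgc

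The Kcnj10 and Hepacam windows held 2 NFI motifs and 1 SOX motif each, the Dag1 window 2 NFI motifs and the Mlc1 window 1. The Kcnj16 window held the STAT match, which 8.3% of all 32851 mouse windows hold. No window of the 6 members held an AP-1 match, against 7.8% of all windows, and NFI motifs, SOX motifs and TATA boxes stood in 46.7%, 18.7% and 13.6% of all windows. The 5 windows shown ranged in GC content from 44.3% for Kcnj16 to 75.3% for Dag1. A match is a description of these letters only.

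In uninjured Aldh1l1 astrocytes, 7 of the 8 genes stood at rank 291 or higher among 22687 genes in level per length. On the FPKM scale (CPM per kb of exon), Atp1b2 stood at 4282 ± 581 (mean ± SD, n = 4) and rank 6, and Kcnj10 at 985.5 ± 130 and rank 33. Mlc1 followed at 725.2 ± 25.5, Aqp4 at 509.3 ± 68.7 and Hepacam at 428.5 ± 37.1 FPKM. Slc4a4 stood at 245.3 ± 30.3, Kcnj16 at 188.4 ± 19.1 and Dag1 last at 40.65 ± 8.0 FPKM, in the top 7.29% of genes. The ranges of neighbours in this order did not overlap, except those of Aqp4 and Hepacam. Kir4.1 transcripts therefore stood above those of its partner Kir5.1 in every uninjured library, with a Kcnj16 to Kcnj10 ratio of 0.176 to 0.235.

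**Figure D1:**
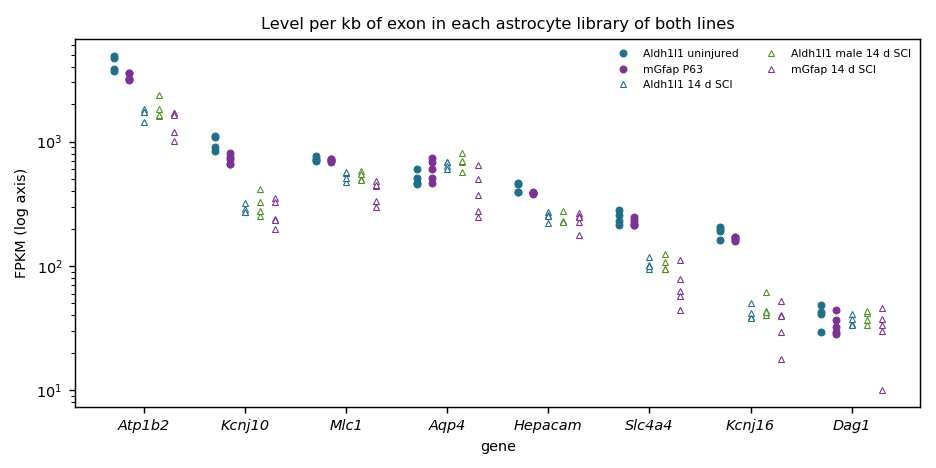
Level of each gene in FPKM (log axis) in every astrocyte library of the Aldh1l1 and mGfap lines, uninjured and at 14 d after SCI (Aldh1l1 females and males apart), with 1 point per library. Atp1b2 is at the top and Dag1 at the bottom in the uninjured Aldh1l1 and mGfap P63 libraries, and Kcnj10 and Kcnj16 drop at 14 d in both lines.

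In uninjured cord all 8 genes were enriched in the astrocyte fraction, where 18.9% of 17595 genes were called at least 2-fold higher at an FDR under 0.01. Slc4a4 had the largest enrichment, with 1859 to 2447 CPM in astrocyte and 27.8 to 32.4 CPM in flow-through libraries, a log2 fold change of 6.19 ± 0.12 (SE) or 73.2-fold. Aqp4 was 52.3-fold enriched, Mlc1 46.5-fold and Kcnj16 44.9-fold. Atp1b2 (26.4-fold), Kcnj10 (16.9-fold), Hepacam (8.21-fold) and Dag1 (8.18-fold) were less enriched. Hepacam and Dag1 are known to be made by other cells too, but the part of other cells was not tested for any of these genes. All 8 were also called enriched in each of the other 8 groups tested, the females after SCI and both adult mGfap groups, and males were not tested for enrichment. The shares of all genes called there were 19.7% (2 d), 16% (5 d), 15.4% (14 d), 17.8% (28 d), 13.1% (42 d) and 13.7% (70 d) in the Aldh1l1 line, and 17.8% (P63) and 15.6% (14 d) in the mGfap line.

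At 2 d after SCI every member was lower in astrocyte libraries than in uninjured ones, and Kcnj10 fell the most. Its level was 5950, 6392, 7609 and 7828 CPM in the 4 uninjured libraries and 663, 851, 913, 996 and 1451 CPM in the 5 libraries at 2 d, so the groups stood far apart. The log2 fold change was -2.83 ± 0.16 (SE, n = 5 against 4, adjusted p = 2.2e-15), 7.1-fold lower. Its partner Kcnj16 fell less at this time, from 649, 765, 800 and 822 CPM to 241, 271, 290, 321 and 323 CPM, or by 1.38 ± 0.12 on the log2 scale. The water channel gene Aqp4 went from 2735, 2790, 3076 and 3637 CPM to 867, 928, 951, 1224 and 1385 CPM, a log2 fold change of -1.51 ± 0.18. The highest library at 2 d lay below the lowest uninjured one for each of these 3 genes. Atp1b2 was 4.02-fold, Slc4a4 3.95-fold, Mlc1 3.06-fold, Hepacam 2.87-fold and Dag1 2.06-fold lower, and Dag1 had the weakest call (log2 fold change -1.04 ± 0.20, adjusted p = 5.6e-05). Among all 18205 genes tested, 29.9% were called lower at 2 d, and the members' median log2 fold change was -1.57 against -0.04 for all genes. The 12 astrocyte markers moved the same way, with 9 called lower and a median of -1.48, and their part in the members' result was not tested.

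The genes took different courses afterwards, while the time points share the 4 uninjured libraries as controls. Aqp4 rose early: it stood at 1280, 1716, 2108 and 2328 CPM at 5 d and at 3586, 3793, 4100 and 4128 CPM at 14 d. It rose from 2 to 5 d (log2 fold change 0.76 ± 0.18, adjusted p = 0.00087) and again from 5 to 14 d (1.04 ± 0.19, adjusted p = 0.00011). At 14 d its libraries overlapped the highest uninjured one, and from there on it was not called different from uninjured, with log2 fold changes of 0.30 ± 0.19 (14 d), 0.23 ± 0.19 (28 d), 0.44 ± 0.19 (42 d) and -0.34 ± 0.19 (70 d). The late levels spread widely, at 2894, 3762, 4211 and 5573 CPM at 42 d and 1594, 2156, 2892 and 3004 CPM at 70 d. The call at 5 d against uninjured (-0.75 ± 0.19, adjusted p = 0.0014) was lost with scaling by library totals (-0.62, adjusted p = 0.0133).

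Kcnj10 stayed low for the whole time course. It stood at 1361, 1409, 1631 and 1725 CPM at 5 d, at 1907, 1916, 2022 and 2247 CPM at 14 d and at 1670, 2091, 2281 and 2314 CPM at 70 d. The highest of the female libraries after SCI stood at 2339 CPM, at 42 d, and the lowest uninjured one at 5950 CPM. The log2 fold changes were -2.21 ± 0.17 (5 d), -1.83 ± 0.16 (14 d), -1.72 ± 0.16 (28 d), -1.77 ± 0.16 (42 d) and -1.73 ± 0.16 (70 d), which is 3.32-fold lower at the last time. It rose between 2 and 5 d (0.62 ± 0.15, adjusted p = 0.00098), a call lost with those groups alone in the fit (adjusted p = 0.0102), and no later step was called.

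Kcnj16 reached its lowest level later than Kcnj10, although both encode subunits of the same channels. Its libraries at 5 d held 130, 141, 170 and 180 CPM, all below the lowest of the 2 d libraries, and the step was called (log2 fold change -0.93 ± 0.12, adjusted p = 3.3e-07). At 14 d they held 155, 155, 167 and 204 CPM and at 70 d 232, 278, 293 and 302 CPM. The change from uninjured was -2.31 ± 0.13 at 5 d (4.97-fold lower), -2.21 ± 0.13 at 14 d and -1.45 ± 0.13 at 70 d. The rise from 14 to 70 d was called (0.76 ± 0.13, adjusted p = 3.3e-05).

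The sodium pump subunit and the bicarbonate cotransporter recovered in part. Atp1b2 had 15456 to 20218 CPM in uninjured libraries, 3725 to 5155 CPM at 5 d, 6018 to 7661 CPM at 14 d and 7430 to 8987 CPM at 70 d. It rose from 5 to 14 d (log2 fold change 0.68 ± 0.11, adjusted p = 2.2e-05) and was still 2.16-fold below uninjured at 70 d. Slc4a4 had 1859 to 2447 CPM uninjured, 376 to 559 CPM at 5 d, 824 to 1029 CPM at 14 d, 1164 to 1443 CPM at 42 d and 834 to 1222 CPM at 70 d. Its change from uninjured was -2.18 ± 0.13 at 5 d, -0.73 ± 0.13 at 42 d and -0.96 ± 0.13 at 70 d. For both genes no library after SCI overlapped the uninjured ones.

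MLC1 and GlialCAM bind each other, but their transcripts parted ways. Mlc1 went from 2001, 2047, 2075 and 2174 CPM uninjured to 576, 576, 684 and 770 CPM at 5 d, then to 1347, 1471, 1609 and 1626 CPM at 14 d and 1909, 1957, 2051 and 2058 CPM at 70 d. The libraries at 70 d overlapped the uninjured ones, and those at 5 and 14 d did not. The step from 5 to 14 d was its largest (log2 fold change 1.19 ± 0.09, adjusted p = 5.9e-11). Mlc1 was lower than uninjured at 14 d (-0.51 ± 0.09) and not called at 28 d (-0.17 ± 0.09, adjusted p = 0.099), 42 d (-0.09 ± 0.09) or 70 d (-0.05 ± 0.09, adjusted p = 0.65). Hepacam went from 1323 to 1550 CPM uninjured to 495 to 690 CPM at 5 d and 911 to 1012 CPM at 70 d, still 1.47-fold lower (adjusted p = 1.4e-05), and no Hepacam library after SCI reached the uninjured range.

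Dag1 was low early and again late. It stood at 178, 247, 255 and 292 CPM in uninjured libraries, at 103, 109, 111, 121 and 146 CPM at 2 d and at 96.5, 138, 150 and 153 CPM at 5 d. It overlapped uninjured at 14 d, with 201, 205, 224 and 247 CPM (log2 fold change -0.20 ± 0.21, adjusted p = 0.43), and was not called at 28 d or at 42 d (-0.51 ± 0.21, adjusted p = 0.046), the latter except without replicate 2 of 42 d (-0.70, adjusted p = 0.0094). At 70 d it stood at 67.1, 109, 150 and 164 CPM, all below the uninjured libraries, and was called again (-0.98 ± 0.21, adjusted p = 0.00036), though not when only the 70 d and uninjured groups entered the fit (adjusted p = 0.0105).

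Of the members, 8 were lower at 5 d, 6 at 14 d, 5 at both 28 and 42 d and 6 at 70 d, and none was called higher at any time. The shares of all genes called lower were 28.1% (5 d), 22.8% (14 d), 19.1% (28 d), 20% (42 d) and 21.5% (70 d). The members' medians were -1.89, -1.06, -0.83, -0.77 and -0.97 on the log2 scale, and those of all genes lay between -0.02 and 0.05. The 12 astrocyte markers had medians of -2.02, -1.11, -0.95, -0.97 and -0.90, with 11, 10, 9, 8 and 9 of them lower. Between neighbouring times, 3 of 8 members were called from 2 to 5 d (41.4% of all genes) and 5 of 8, all higher, from 5 to 14 d (25.3%). Between 14 and 70 d 4 of 8 were called (29.5%), Kcnj16 and Mlc1 higher and Aqp4 (-0.64 ± 0.19, adjusted p = 0.0097) and Dag1 (-0.78 ± 0.21, adjusted p = 0.0048) lower. Both falls were lost without replicate 2 of 70 d, with -0.48 (adjusted p = 0.0535) for Aqp4 and -0.58 (adjusted p = 0.0214) for Dag1. Neuron markers summed to 327 CPM in that library, against 90.6 to 148 CPM in the other astrocyte libraries of 70 d. The part of this difference was not tested. The call of Aqp4 was lost in 19 of 29 fits that left out 1 library, and that of Dag1 also without replicate 3 of 70 d or replicate 2 or 4 of 14 d. Dag1 was not called from 5 to 14 d (0.68 ± 0.21, adjusted p = 0.015), but was without replicate 2 of 70 d (0.68, adjusted p = 0.00335), with DESeq2 (0.66, adjusted p = 0.00441) and with the groups of 5 and 14 d alone in the fit (0.68, adjusted p = 0.000767).

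**Figure D2:**
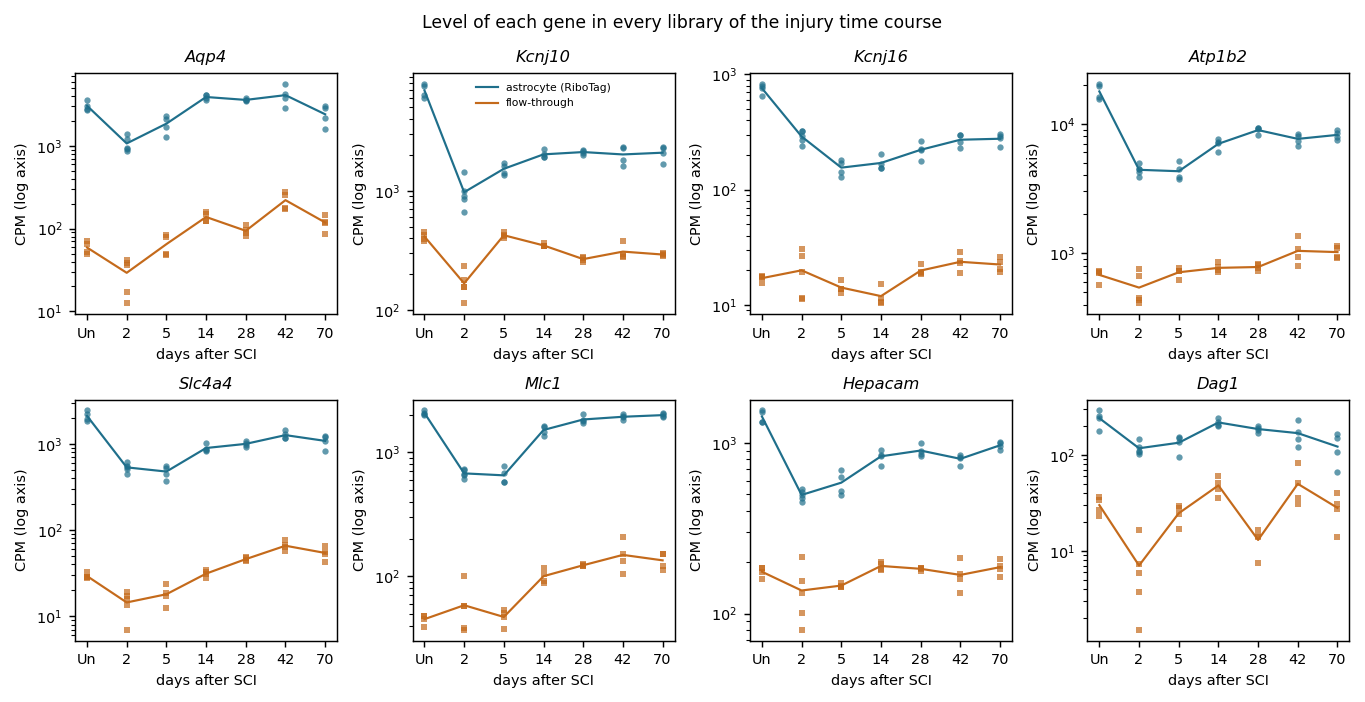
Level of each gene in CPM (log axis) in every astrocyte and flow-through library of the female injury time course, by days after SCI, with 1 point per library and a line at the group mean. Kcnj10 drops from 5950 to 7828 CPM to 663 to 1451 CPM in astrocyte libraries at 2 d and stays at or under 2339 CPM, while Mlc1 at 70 d overlaps its uninjured range.

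**Figure D3:**
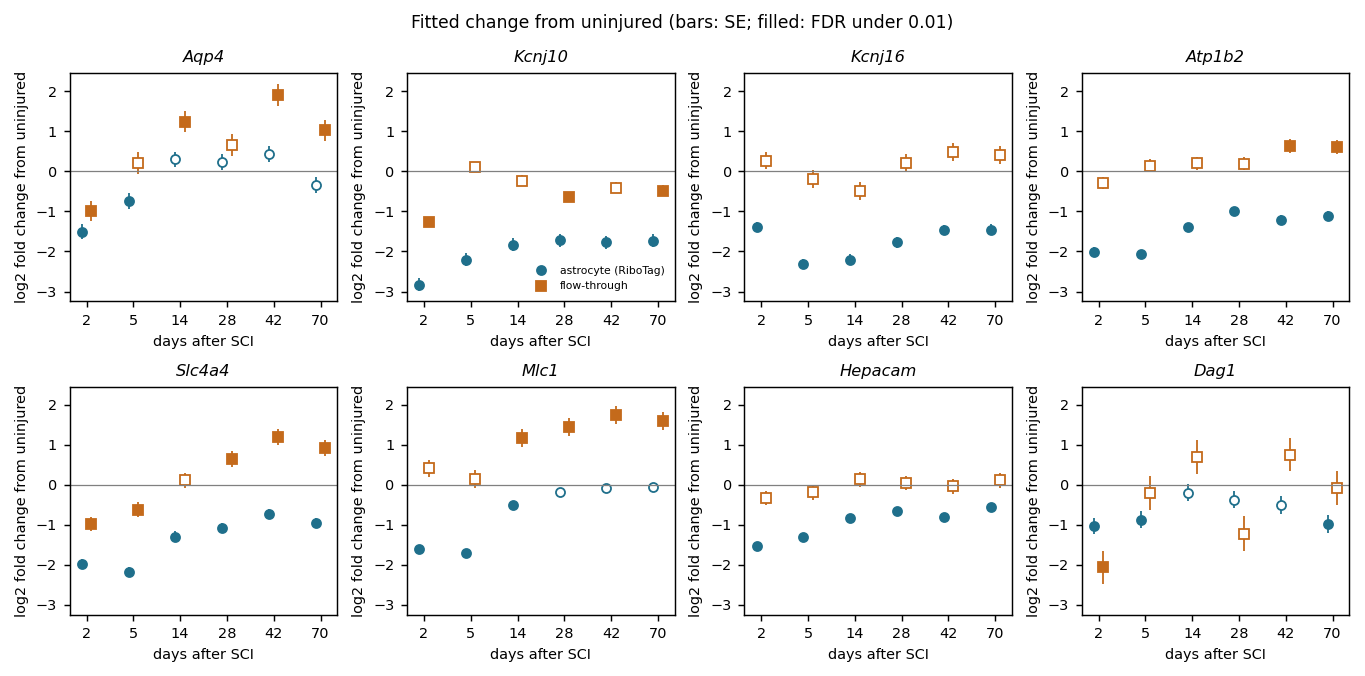
Fitted log2 fold change from uninjured for each gene by days after SCI, with SE bars, for the astrocyte and the flow-through fraction, and filled points where the FDR was under 0.01. The astrocyte values of Kcnj10 and Kcnj16 lie between -2.83 and -1.38 at all times, whereas the flow-through values of Aqp4 and Mlc1 lie above 0 from 14 d on.

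Flow-through libraries were made from the same animals, and there some members were lower than uninjured at 2 d and some were higher later. At 2 d 4 of 8 were lower (65.6% of 19207 genes were called in either direction): Kcnj10 (log2 fold change -1.27 ± 0.12), Aqp4 (-0.98 ± 0.25), Slc4a4 (-0.98 ± 0.18) and Dag1 (-2.07 ± 0.41). Flow-through Dag1 was 22.8, 26.7, 34.0 and 36.5 CPM in uninjured cord and 1.5, 3.68, 5.89, 7.30 and 16.7 CPM at 2 d, with no overlap and a wide spread. Hepacam was not called at 2 d (-0.33 ± 0.17, adjusted p = 0.086), but was without replicate 4 of 2 d (-0.54, adjusted p = 0.00173) and with library totals (-0.57, adjusted p = 0.00168). Library totals also gave a call of Atp1b2 at 2 d (-0.52, adjusted p = 0.00219). At 5 d 1 of 8 was called (49.6% of all genes), Slc4a4 at -0.63 ± 0.19 (adjusted p = 0.0069), a call that 7 of 29 fits without 1 library lost. At 14 d 2 of 8 were called (44.1%), both higher: Aqp4, at 123, 123, 148 and 158 CPM against 49.5, 52.5, 64.4 and 69.8 CPM in uninjured cord (1.24 ± 0.27), and Mlc1 (1.17 ± 0.22).

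The late flow-through libraries held more Aqp4 and Mlc1 than uninjured ones. At 42 d 4 of 8 were called higher (44.6% in either direction), with Aqp4 at 172, 177, 257 and 277 CPM (log2 fold change 1.92 ± 0.27, 3.78-fold) and Mlc1 at 105, 132, 150 and 208 CPM against 39.2 to 48.1 CPM (1.74 ± 0.22, 3.34-fold). Slc4a4 (1.19 ± 0.20) and Atp1b2 (0.63 ± 0.17) were the others, and the Atp1b2 call was lost without replicate 3 of 42 d (0.48) or replicate 2 of uninjured (0.49), with adjusted p of 0.0190 to 0.0225. RLE scaling lost the Atp1b2 calls at 42 d (0.52, adjusted p = 0.0113) and at 70 d (0.51, adjusted p = 0.014). Kcnj10 was not called at 42 d (-0.40 ± 0.13, adjusted p = 0.011), but was called lower in 7 fits without 1 library and with 7 other settings (-0.52 to -0.40), DESeq2 and RLE among them. At 70 d 5 of 8 were called (37.6%), Aqp4 (1.02 ± 0.27), Atp1b2 (0.60 ± 0.17), Slc4a4 (0.91 ± 0.19) and Mlc1 (1.60 ± 0.22) higher and Kcnj10 lower (-0.48 ± 0.13). At 70 d the Aqp4 call was lost without replicate 4 of 70 d or replicate 1 of uninjured (0.90 to 0.95, adjusted p = 0.0101 to 0.0113), that of Kcnj10 without replicate 3 of uninjured (-0.44, adjusted p = 0.0144), and that of Atp1b2 without replicate 3 or 4 of 70 d or replicate 2 of uninjured (0.49 to 0.57). At 28 d 3 of 8 were called (48.9%), Mlc1 (1.43 ± 0.22) and Slc4a4 (0.64 ± 0.19) higher and Kcnj10 lower (-0.64 ± 0.13), and the Slc4a4 call was lost in 6 fits without 1 library and with 3 other scalings or tools (0.49 to 0.53). Dag1 was not called at 28 d (-1.22 ± 0.43, adjusted p = 0.016), but was called lower without replicate 1 or 4 of 2 d (-1.19) and with 5 other settings (-1.37 to -1.21), DESeq2, RLE and library totals among them. The astrocyte marker sum in flow-through libraries went from 3960 to 4406 CPM in uninjured cord to 5223 to 8391 CPM at 42 d, and the myeloid sum from 199 to 228 CPM to 2320 to 2985 CPM, and their part in these results was not tested.

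The excess of astrocyte over flow-through libraries shrank for 6 of the 8 genes at each of 2, 5, 14, 28 and 70 d and for 7 at 42 d. This was tested as the change of the astrocyte to flow-through ratio from uninjured, where the share of all 19640 genes called lower was 20.6% (2 d), 10.9% (5 d), 10% (14 d), 12.9% (28 d), 10.7% (42 d) and 8.9% (70 d). Kcnj10 was 15.6 to 17.8 times higher in the astrocyte than in the flow-through library of the same uninjured animal, and 3.03 to 4.10 times higher at 5 d. Its enrichment fell by 2.11 ± 0.21 on the log2 scale at 5 d, beside -2.01 ± 0.20 for Atp1b2 and -1.92 ± 0.26 for Kcnj16. For Aqp4 the loss was called at 42 d (-1.41 ± 0.34) and 70 d (-1.31 ± 0.34) and not at the earlier times (-0.81 to -0.34). The call of Aqp4 at 70 d was lost without astrocyte replicate 2 of 70 d (-1.15, adjusted p = 0.0111) or flow-through replicate 4 of 70 d (-1.19, adjusted p = 0.0101). Dag1 was not called lower at any time, and at 2 d its ratio went up (1.21 ± 0.47, adjusted p = 0.023), past the threshold with the animal as a replicate block (1.54, adjusted p = 0.000608) or without flow-through replicate 1 of 2 d (1.80, adjusted p = 0.000253). Hepacam was not called at 70 d (-0.61 ± 0.21, adjusted p = 0.022), but was with the animal block (-0.60, adjusted p = 0.00862), and its calls at 28 d (-0.65 ± 0.21) and 42 d (-0.69 ± 0.21) were lost with RLE scaling, with library totals and with no low-count filter. The 28 d call of Hepacam was also lost with DESeq2 (-0.62, adjusted p = 0.0137) and in 38 fits without 1 library (adjusted p = 0.01001 to 0.0361), and the 42 d call in 12 (adjusted p = 0.010004 to 0.0354).

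**Figure D4:**
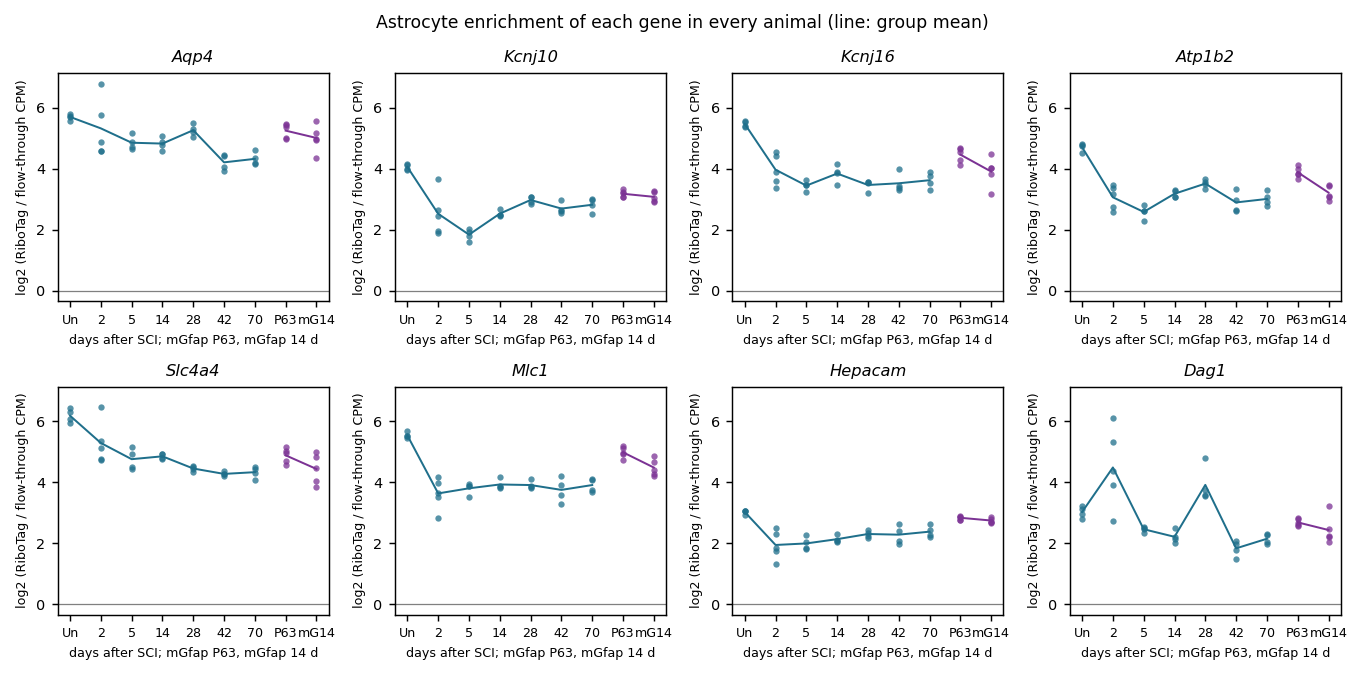
Log2 ratio of the astrocyte to the flow-through library of the same animal (paired by replicate number) for each gene, by days after SCI and for mGfap at P63 and at 14 d, with 1 point per animal and a line at the group mean. Kcnj10 falls from ratios of 15.6 to 17.8 in uninjured animals to 3.03 to 4.10 at 5 d, and Dag1 at 2 d spreads from 6.66 to 68.3.

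The balance of the genes within a library also differed between times. The ratios that follow were picked after the values were seen and are a description with no test, and each compares FPKM within a library, so scaling does not enter. Aqp4 stood at 0.430 to 0.565 times the Kcnj10 level in uninjured astrocytes, at 1.09 to 1.57 times at 2 d, at 2.16 to 2.51 times at 14 d and at 0.820 to 1.68 times at 70 d, with no injured library in the uninjured range. Mlc1 to Hepacam ratios were 1.56 to 1.81 in uninjured libraries, 1.27 to 1.36 at 5 d and 2.72 to 2.90 at 42 d. The Kcnj16 to Kcnj10 ratio was 0.389 to 0.660 at 2 d and 0.167 to 0.183 at 5 d, against 0.176 to 0.235 uninjured.

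Lists of other genes of the same processes were counted at 2 and 70 d, where 29.9% and 21.5% of all genes were called lower and 30.2% and 23.9% higher. Myeloid markers in the astrocyte libraries summed to 23.3 to 37.1 CPM uninjured, 572 to 1131 CPM at 2 d and 377 to 979 CPM at 70 d. The part of other cells in the changes of the listed genes was not tested. Of 12 endfoot scaffold and matrix genes, 9 fell and none rose at 2 d (median log2 fold change -0.82), among them the dystrophin complex genes Dtna (-1.30 ± 0.10) and Dmd (-1.22 ± 0.15) and the laminin gene Lama2 (-1.15 ± 0.13). At 70 d 6 were lower and 2 higher (median -0.31), with Sntb1 (-1.20 ± 0.30) lower and Sgcd (2.27 ± 0.61) and the laminin gene Lamb2 (0.82 ± 0.10) higher. Of 11 potassium clearance partners, 7 fell and 2 rose at 2 d (median -1.73), led by Fxyd6 (-3.11 ± 0.20), the channel gene Kcnk1 (-2.53 ± 0.10) and the pump subunit gene Atp1b1 (-2.0 ± 0.16). At 70 d 4 were higher and 2 lower (median 0.26), and the pump regulators Fxyd7 (1.93 ± 0.22) and Fxyd1 (1.91 ± 0.15) and the inward rectifier Kcnj2 (1.86 ± 0.24) led, while Kcnj10 and Kcnj16 stayed low. All 3 gap junction genes fell at 2 d (median -2.59), Gjb6 by 2.60 ± 0.15, Gja1 by 2.59 ± 0.15 and Gjb2 by 0.89 ± 0.20 on the log2 scale, and at 70 d Gja1 (-1.03 ± 0.16) and Gjb6 (-0.91 ± 0.16) were still lower (median -0.91).

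Bicarbonate and acid transport genes split, with 3 of 8 higher and 3 lower at 2 d (median -0.35). The carbonic anhydrases Car14 (-4.35 ± 0.16) and Car2 (-1.87 ± 0.10) fell and the cotransporter Slc4a7 rose (1.22 ± 0.12). At 70 d 1 rose, the monocarboxylate transporter Slc16a1 (1.41 ± 0.09), and 3 were lower (median -0.33), with Car14 at -1.08 ± 0.16 and Car2 at -1.07 ± 0.10. Of 5 genes for partners of MLC1 and GlialCAM, 4 fell and 1 rose at 2 d (median -1.64): the receptor Gprc5b (-2.81 ± 0.10) and the chloride channel Clcn2 (-1.80 ± 0.13) fell, and the osmosensitive channel Trpv4 rose (1.97 ± 0.26). At 70 d Trpv4 was 6.22-fold higher (2.64 ± 0.27), and 3 were lower (median -0.45), Gprc5b (-0.91 ± 0.11) and Gpr37l1 (-0.74 ± 0.10) among them. Of the 3 other aquaporins tested, Aqp11 fell (-2.0 ± 0.25) and Aqp1 rose (1.11 ± 0.36) at 2 d (median 0.19), and Aqp1 was the only one called at 70 d (1.78 ± 0.38, median 0.05). The medians of all genes at 2 and 70 d were -0.04 and 0.05.

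Genes most alike each member were found by the root mean square difference of group means in log2 CPM, each centred over the 7 groups of the astrocyte time course, among 13962 genes. Hepacam had the closest match, Zcchc24 at 0.035, followed by Zfp438 at 0.059 and Zer1 at 0.082. Next to Atp1b2 stood the potassium channel genes Kcnn3 (0.075) and Kcnab1 (0.076), and next to Mlc1 Zrsr1 (0.078), Enpp5 (0.091) and Pcdhb13 (0.095). Dag1 was nearest to Zfp41 (0.093), Schip1 (0.10) and Dcp1b (0.14), Kcnj10 to Ucp3 (0.096), Parm1 (0.13) and Adgrb1 (0.13), and Slc4a4 to Dnajc6 (0.10), Ppm1k (0.10) and Igdcc4 (0.12). Kcnj16 was nearest to Glul, the glutamine synthetase gene (0.13), Ppara (0.14) and Chn1 (0.14), and Aqp4 to Aff3 (0.14), Ccl28 (0.14) and Ston1 (0.18). Among the members, the smallest difference was between Atp1b2 and Slc4a4 (0.18), and the nearest member to Kcnj16 was at 0.45 (Atp1b2). A nearest member was sought among 7 genes and a nearest gene among 13962. The sizes of these differences therefore cannot show whether members are less alike than other genes.

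In the mGfap line, 6 of the 8 members were lower at 14 d after SCI than in uninjured P63 mice, where 16.4% of 17848 genes were called lower. The members' median log2 fold change was -0.92, against 0.17 for all genes. Kcnj10 stood at 4631, 4677, 5108, 5257 and 5758 CPM at P63 and at 1390, 1660, 1686.5, 2301 and 2467 CPM after SCI, a log2 fold change of -1.33 ± 0.14. Kcnj16 had the largest change, from 644 to 695 CPM to 72.0 to 209 CPM (-2.13 ± 0.19, 4.38-fold lower), and Slc4a4 went from 1848.7 to 2157 CPM to 380 to 958 CPM (-1.59 ± 0.17). Atp1b2 (-1.10 ± 0.14), Mlc1 (-0.73 ± 0.11) and Hepacam (-0.63 ± 0.10) fell too, with no overlap of the groups. Aqp4 stood at 2800, 3085, 3638, 4146 and 4466 CPM and at 1486, 1678, 2238, 3002 and 3928 CPM, which overlap, and was not called (-0.47 ± 0.21, adjusted p = 0.059) except without replicate 2 of 14 d (-0.69, adjusted p = 0.00307). Dag1 was not called (-0.03 ± 0.26). Between lines, edgeR called none of the 8 genes in uninjured mice (12.4% of all genes), at 14 d (23.3%) or in the line by injury interaction (12.7%). DESeq2 called 3085, 4902 and 3053 of all 17848 genes in these comparisons, and 1, 3 and 0 of the members. At an unadjusted p under 0.05 there were 2, 3 and 2 members, and the share of all genes under that rule is not given. Without replicate 2 of mGfap 14 d, 3 were called lower than in the Aldh1l1 line at 14 d: Aqp4 (-0.82, adjusted p = 0.00218), Slc4a4 (-0.70, adjusted p = 0.000623) and Mlc1 (-0.40, adjusted p = 0.00758). Without it, Aqp4 was also called in the interaction (-1.02, adjusted p = 0.00772), and Kcnj10 was called lower at P63 than in uninjured Aldh1l1 mice (-0.49 ± 0.14, adjusted p = 0.018 with all libraries) without replicate 2 or 4 of mGfap 14 d. Oligodendrocyte markers (8 genes) summed to 27961 to 41708 CPM in injured mGfap astrocyte libraries and 10254 to 14339 CPM at P63. In Aldh1l1 astrocyte libraries they summed to 3628 to 8318 CPM uninjured and 2349 to 3056 CPM at 14 d. The part of these cells was not tested.

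After birth the channels and pumps rose at different paces in the mGfap line while dystroglycan fell. From P0 to P63 7 of the 8 genes rose and Dag1 fell, among 50.2% of 18041 genes called in either direction. Atp1b2 rose the most, from 933, 1808, 2082 and 2358 CPM at P0 to 13068, 13141, 13152, 14674 and 14757 CPM at P63 (log2 fold change 2.92 ± 0.20, 7.57-fold). Kcnj10 rose from 719, 732, 827 and 833 CPM to the P63 levels above (2.69 ± 0.16, 6.46-fold), Mlc1 by 2.19 ± 0.20 and Kcnj16 by 2.01 ± 0.21 on the log2 scale, and these 4 did not overlap between the ages. Aqp4 (0.89 ± 0.23), Hepacam (0.78 ± 0.17) and Slc4a4 (0.70 ± 0.21) rose less, and their calls were lost with scaling by library totals (0.42, 0.29 and 0.22) and with P0 and P63 fitted alone. Dag1 went from 807, 949, 1034 and 1052 CPM to 169, 175, 192.5, 218 and 266 CPM (-2.25 ± 0.20, 4.77-fold lower). The 12 astrocyte markers summed to 59115 to 66336 CPM at P63 and to 6143 to 16441 CPM at P0, and their part was not tested. Schwann cell markers summed to 6389 to 19664 CPM at P0 and 1009 to 1994 CPM at P63. Stroma markers summed to 2160 to 4867 CPM at P0 and 165 to 260 CPM at P63. The part of these cells in the changes, that of Dag1 included, was not tested. Without replicate 3 of P0, which had the lowest level of 7 of the 8 genes and a Schwann cell marker sum of 19664 CPM against 6389 to 11557 CPM, all 8 were still called, with Slc4a4 at 0.45 and Aqp4 at 0.69. The Slc4a4 call was lost without replicate 2 or 5 of P63 (0.66 to 0.68, adjusted p = 0.0113 to 0.0134).

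The steps between ages differed by gene. In the first week 6 of 8 were called (20.1% of all genes): Mlc1 (1.78 ± 0.21), Atp1b2 (1.43 ± 0.20), Aqp4 (1.37 ± 0.26), Kcnj16 (1.18 ± 0.23) and Kcnj10 (0.94 ± 0.17) rose and Dag1 fell (-0.82 ± 0.23, adjusted p = 0.0077), the last lost in 7 fits without 1 library (adjusted p = 0.0101 to 0.0439), replicate 3 of P0 among them (-0.77, adjusted p = 0.0198). The Dag1 call was also lost with labelled sex as a covariate (-0.76, adjusted p = 0.0128) and with P0 and P7 alone in the fit (-0.81, adjusted p = 0.0176). The fit of P0 and P7 alone also lost the calls of Mlc1, Atp1b2, Aqp4 and Kcnj16 (adjusted p = 0.0148 to 0.0598). Of the first-week calls, only that of Kcnj10 was kept there. In the second week 3 of 8 were called (18.8%), Kcnj10 (1.02 ± 0.17) and Atp1b2 (0.99 ± 0.20) higher and Dag1 lower (-1.53 ± 0.21). From P14 to P21 2 of 8 were called (23.1%), Kcnj10 (0.67 ± 0.15) and Dag1 (0.99 ± 0.20), both higher. Dag1 thus had a low point at P14, at 127, 173, 204, 211 and 235 CPM, below every library at P7 (500 to 631 CPM) and at P21 (275 to 443 CPM). From P21 to P63 1 of 8 was called (9.22%), Dag1 lower (-0.90 ± 0.20), lost without replicate 2 of P21 (-0.82, adjusted p = 0.0128). Aqp4 peaked at P21, at 5224, 5646, 7230 and 7656 CPM, against 2825 to 4484 CPM at P14 and 2800 to 4466 CPM at P63, with no overlap, but neither step passed the threshold (0.73 ± 0.23, adjusted p = 0.013, and -0.82 ± 0.23, adjusted p = 0.012). Both passed it without replicate 3 of P0, replicate 4 of P0 or replicate 1 of P35, and with DESeq2, library totals, the replicate number as a block or the groups of the step alone (0.73 to 0.82 and -0.89 to -0.80). The Aqp4 levels at P21 (870 to 1274 FPKM) did overlap those at P7 (774 to 909 FPKM) and at P35 (418 to 1019 FPKM). The Aqp4 to Kcnj10 ratio of FPKM was 4.72 to 7.65 at P3, 1.29 to 1.72 at P14 and 0.688 to 0.952 at P63.

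**Figure D5:**
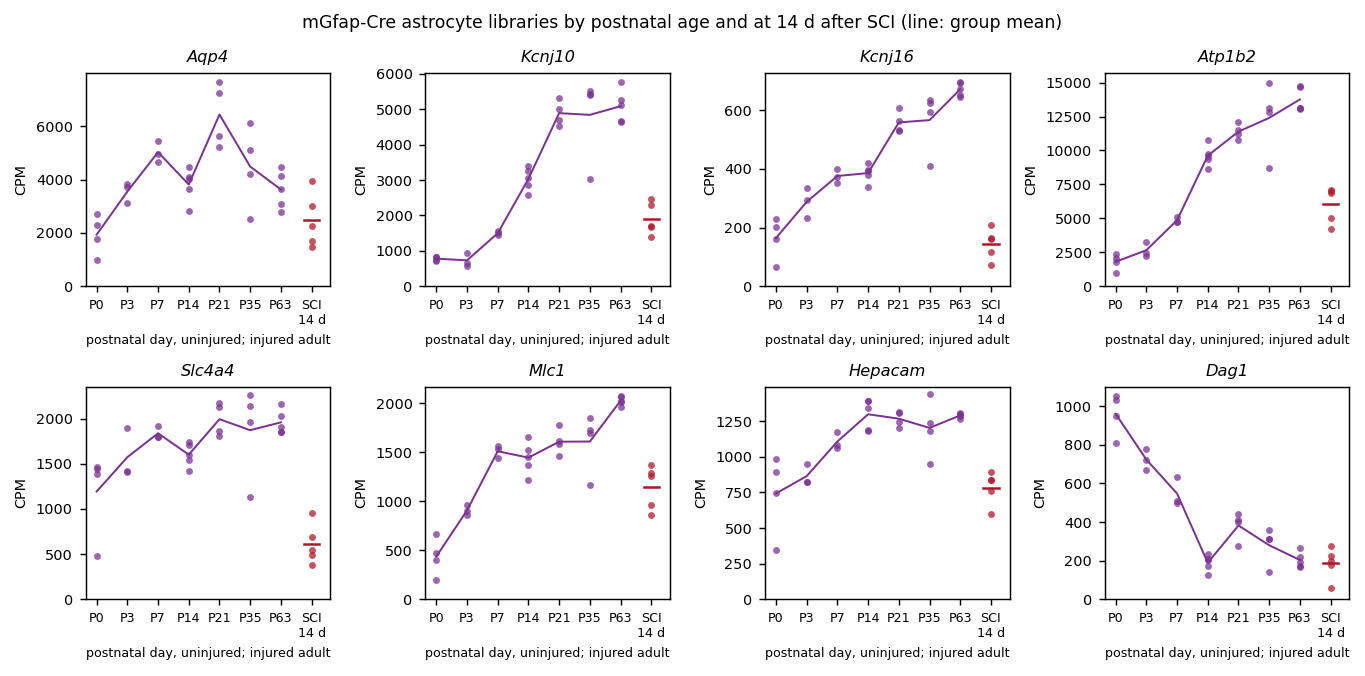
Level of each gene in CPM in mGfap astrocyte libraries at 7 postnatal ages and at 14 d after SCI in adults, with 1 point per library and a line at the group mean. By group mean, Atp1b2 rises from P0 through P21 and Kcnj10 from P3 through P21. Dag1 drops from 807 to 1052 CPM at P0 to 127 to 235 CPM at P14. Injured adults lie below P63 for Kcnj10, Kcnj16, Atp1b2, Slc4a4, Mlc1 and Hepacam.

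Astrocyte libraries of injured adult mGfap mice were compared with those of newborns, a contrast in which 51.1% of 18380 genes were called and 5 of the 8 members. Atp1b2 (1.75 ± 0.20), Mlc1 (1.39 ± 0.20) and Kcnj10 (1.29 ± 0.17) were higher at 14 d after SCI than at P0. Slc4a4 (-0.97 ± 0.23, adjusted p = 0.00062) and Dag1 (-2.35 ± 0.27, 5.11-fold) were lower. Kcnj16 had 72.0, 118, 160, 164 and 209 CPM in injured adults and 65.6, 159, 203 and 229 CPM at P0, fully overlapping (-0.18 ± 0.23), and Aqp4 (0.35 ± 0.26) and Hepacam (0.08 ± 0.17) were not called either. Without replicate 3 of P0 no call changed, but Kcnj16 stood at -0.48 (adjusted p = 0.031) and Slc4a4 at -1.26. In that fit Aqp4 stood at 0.10 and Hepacam at -0.19. Oligodendrocyte markers summed to 27961 to 41708 CPM in the injured libraries and 3688 to 8504 CPM at P0. Schwann cell markers summed to 2190 to 5064 CPM and 6389 to 19664 CPM, and the part of these cells was not tested. The P0 mice were males and the injured ones females, and with labelled sex as a covariate no call of the 8 genes changed.

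Males and females were compared in the astrocyte libraries at 5 and 14 d, where edgeR called none of the 8 genes (0.051% of 17639 genes were called, with 0 members at an unadjusted p under 0.05 and 0 by DESeq2) and the log2 differences lay between -0.06 ± 0.15 (Dag1) and 0.04 ± 0.13 (Kcnj16). In flow-through libraries at 14 d, a comparison added after the data were seen and not made at 5 d, 2 of 8 were called (6.58% of all genes). Aqp4 stood at 192.3, 203, 215 and 240 CPM in males and at 123 to 158 CPM in females (0.62 ± 0.10, adjusted p = 0.002), and Slc4a4 at 40.3 to 55.5 CPM against 27.5 to 34.0 CPM (0.64 ± 0.11, adjusted p = 0.0023), with no overlap in either.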

How the data were processed

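Poly-A RNA-seq was made from 70 HA-immunoprecipitated (RiboTag) and 47 flow-through libraries. Per the study's methods, the authors ran Trimmomatic, HISAT2 (on mm10) and featureCounts in Galaxy with default parameters and deposited raw counts per Entrez gene. RefSeq GRCm38.p6 named 25275 of 27179 genes. The 8 genes and all gene lists were chosen with earlier results of these data known, and genes named from the lists were those of each list with the largest called changes. Genes passing edgeR's default filter were tested with edgeR 4.0.16 (TMM scaling, robust quasi-likelihood F test, R 4.3.3), with Benjamini-Hochberg adjustment over all genes and an FDR threshold of 0.01. Enrichment also needed a 2-fold excess. All log2 fold changes stand with their SE, and a median is over the listed genes tested. CPM were set on one TMM scale over 117 libraries, and FPKM are CPM per kb of exon union. The fits were checked on simulated counts. The replicates were separate animals. The fractions of an animal were paired by the replicate number in the titles (29 pairs in the time course, median correlation of deviations 0.0892, range -0.0265 to 0.308), so the animal block was tried as well. Within single groups the median was 0.0079 at 2 d and 0.0051 at 28 d, beside -0.0078 and 0.0011 for other numbers. At these times the pairing rests on the numbers alone. Alternatives were DESeq2 1.42.0, RLE and library-total scaling, edgeR's newer fit, no filter, an FDR of 0.05, the contrast's groups alone, replicate blocks, sex as a covariate and leaving out each library. No sample was left out, and no column of another series was present (0 columns). Of the genes most alike the members, 1 is not reported here.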

Additional observations from a re-analysis of the deposited data

Results flagged for a closer look

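Of 208 sets of libraries tested (1 gene in 1 group of 4 or 5 libraries), 4 had a library far from the rest of its group, and chance alone gives about 5% of such sets. Hepacam stood at 932 CPM and Kcnj16 at 248 CPM in the same astrocyte library, male replicate 1 at 14 d, against 750 to 769 CPM and 163 to 174 CPM in the other males. Kcnj10 stood at 3021 CPM in P35 replicate 1, against 5393 to 5512 CPM in the others. All 8 genes were lowest in that library of the P35 group, and its neuron marker sum was 2961 CPM, against 418 to 568 CPM in the others. Slc4a4 stood at 480 CPM in P0 replicate 3, against 1385 to 1468 CPM, and 7 of the 8 genes were lowest there. The part of the other cells in these low values was not tested.

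The change after SCI differed between the astrocyte and flow-through fractions, by the test of the difference itself, for 6 of the 8 genes at 2, 5, 14, 28 and 70 d and for 7 at 42 d. In each case the excess of the astrocyte fraction was smaller after SCI. Of all 19640 genes, 20.6% (2 d), 10.9% (5 d), 10% (14 d), 12.9% (28 d), 10.7% (42 d) and 8.9% (70 d) were called in that direction. In either direction 9955 (2 d), 5606 (5 d), 4810 (14 d), 5577 (28 d), 4571 (42 d) and 3476 (70 d) of them were called.

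Male flow-through libraries at 14 d, which entered none of the planned comparisons of sexes, held more Aqp4 (log2 difference 0.62) and Slc4a4 (0.64) than those of females. Of all 17986 genes, 6.58% were called there. The flow-through libraries of the sexes at 5 d were not compared. The fit over male and female astrocyte libraries of 5 and 14 d together called neither gene.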

How the results depend on the processing

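Under alternatives, 11544 values of the 8 genes were computed, across 41 comparisons and for their places in the order of uninjured levels. Of these, 11299 kept their side of the threshold or their place, 142 lost a call, 99 gained one and 4 places moved. None of the called values reversed. Among the 11299, 81 values that were called in neither setting differed in sign. With only the groups of a contrast in the fit, 2 genes in place of 4 were called between 14 and 70 d in astrocytes, 4 in place of 2 in flow-through at 14 d, 5 in place of 3 at 28 d, 2 in place of 0 between uninjured lines, 1 in place of 6 from P0 to P7, 5 in place of 2 from P14 to P21, 5 in place of 1 from P21 to P63 and 5 in place of 8 from P0 to P63. At an FDR of 0.05 these counts were 7 between 14 and 70 d, 5 in flow-through at 28 d, 2 between uninjured lines, 3 between lines at 14 d, 4 from P14 to P21 and 2 from P21 to P63. DESeq2 called 1 gene between uninjured lines, 3 between lines at 14 d and 2 from P21 to P63, RLE scaling 1 between lines at 14 d, and library totals 2 from P21 to P63 and 5 from P0 to P63. Over all genes, the same DESeq2 comparisons called 3085 and 4902 of 17848 and 2378 of 18041. RLE scaling called 4223 of 17848, and library totals 1492 and 9731 of 18041. For the other settings in this paragraph no share of all genes is given. With the replicate number as a replicate block, 2 were called between 14 and 70 d, 1 between lines at 14 d and 2 from P21 to P63. Same-numbered libraries of the astrocyte time course did not deviate together (median correlation -0.00249, range -0.15 to 0.163), so numbers did not pair animals across groups. The paired fit over the fractions of an animal changed the 2 calls given with the change of enrichment and no other. Between sexes, the flow-through libraries at 14 d gave 2 calls, chosen after seeing the data. The cause of these changes was not tested.

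Leaving out 1 library gave 2 to 4 calls between 14 and 70 d, 0 to 1 in flow-through at 5 d, 2 to 4 at 28 d, 3 to 5 at 70 d, 0 to 1 between uninjured lines, 0 to 3 between lines at 14 d, 0 to 1 in the line by injury interaction, 2 to 4 from P14 to P21 and 0 to 2 from P21 to P63. Against TMM, library totals moved the median of all genes by -0.114 to 0.23 (log2) in the astrocyte time course, by -0.226 to -0.063 in flow-through, by -0.582 to -0.103 in enrichment, by 0.038 to 0.272 in its change and by -0.486 to 0.089 between ages. RLE moved it by -0.136 to -0.09 in flow-through. In CPM in place of FPKM, 4 of the 8 genes held another place in the order of uninjured levels.

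The libraries were deep, and the number of animals (3 to 5 a group) limits the precision. The tissue block held the lesion core, and the RNA came from whole fractions. Counting did not use strand as far as the sources used here state.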
